A study of Mus musculus with 24 samples.

Results

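Cytosolic ribosomal protein genes were compared between Nipbl+/- and wild type hindlimb buds. They were taken by gene symbol, as every gene whose symbol is Rpl, Rplp or Rps followed by a number and at most 1 letter, or is Rpsa, with pseudogenes and the Rps6k kinases left out. This gave 59 of the 19937 genes with a value, 37 of the large and 22 of the small ribosomal subunit. By its brightest probe set, no ribosomal protein gene passed the test between the genotypes, and the differences were small. The median log2 difference, Nipbl+/- minus wild type, was -0.0067, and the differences ran from -0.23 for Rps4l to 0.11 for Rpl10l. Of their 132 other probe sets, 2 were called lower (1.52%, beside 0.887% of all probe sets in either direction).

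The groups were 12 Nipbl+/- and 12 wild type (Nipbl+/+) littermate embryos at E10.5, stage-matched at somite stages 35 to 38. Nipbl+/- mice, of the RRS strain, carry 1 working copy of the gene for the cohesin loading protein Nipbl and serve as a model of Cornelia de Lange syndrome. The RNA of an embryo, from its left and right hindlimb bud, was hybridised to 1 Affymetrix Mouse Gene 1.0 ST array, whose probes lie along the whole transcript, and no source used here gives the litter of each embryo. Values are log2 intensities after RMA, a normalization that brings the distributions of all arrays close, so that a shift shared by most genes would not be seen, and a level cannot be set against that of another probe set.

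The ribosome is built from a large subunit, which joins amino acids, and a small subunit, which reads the messenger RNA. Each ribosomal protein is in general present once per ribosome, so the cell makes them in matched amounts, largely by controlling how well their messages are translated. Those messages begin with a run of pyrimidines, the terminal oligopyrimidine tract, through which the kinase mTOR raises or lowers their translation. Loss of 1 copy of some of these genes gives tissue-specific defects: in mice, Rpl38 mutants have changed vertebrae, Rpl24 mutants a kinked tail and a belly spot, and Rpl27a, Rps7, Rps19 and Rps20 mutants changed pigment. In people, several are mutated in Diamond-Blackfan anaemia, a failure of red cell production.

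The start of the genes to which the results below refer is shown here, because the pyrimidine tract is the sequence these messages are known for. Each line gives 30 bases of the GRCm38.p6 assembly from the RefSeq promoter table, 10 before and 20 from the annotated start on, read on the coding strand. Capitals mark a run of 5 or more pyrimidines that covers the start.
Rps9, chr7:3704031-3704060, plus strand: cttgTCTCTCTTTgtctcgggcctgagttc
Rpl27a, chr7:109519185-109519214, plus strand: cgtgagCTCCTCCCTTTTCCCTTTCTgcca
Rpl38, chr11:114668570-114668599, plus strand: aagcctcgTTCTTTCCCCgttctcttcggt
Rps6, chr4:86857348-86857377, minus strand: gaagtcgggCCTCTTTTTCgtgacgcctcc
Rpl24, chr16:55966265-55966294, plus strand: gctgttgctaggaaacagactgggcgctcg
Rpl6, chr5:121204491-121204520, plus strand: acctcccgtcattgcttatagaccggaagc
Rpl9, chr5:65391412-65391441, minus strand: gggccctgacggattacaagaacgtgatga
The tract is plain in Rps9, Rpl27a, Rpl38 and Rps6, whereas no such run covers the annotated start of Rpl24, Rpl6 or Rpl9.

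Of the 59 genes, 47 had a window in that table, with 56 annotated starts among them, and Rps4l had none. A run of 5 or more pyrimidines covered the start in 14 of these windows (25%), against 10.1% of all 32851 windows in the table. A start that was itself a C followed by 4 pyrimidines was found in 17.9% of the ribosomal protein windows and in 2.51% of all windows. A run of 5 or more pyrimidines that began with C within 10 bases of the start was more frequent. It was found in 30 of the 56 ribosomal protein windows (53.6%) and in 30.7% of all windows. Whether each message begins at its annotated start was not tested. A window without a run over that base therefore does not show a message without the tract. Over the full 300 bases, on either strand, CTCTTTC was present in 21.4% against 8.16%, CCGGAAG, a form of the site of Ets factors, in 33.9% against 8.86%, AAGATGGC in 3.57% against 2.75%, and TATAAA in 10.7% against 13.6%. These are matches of letters and say nothing about binding or about translation, which was not measured. The median log2 difference was -0.030 in the 14 genes with a run over the start and -0.0021 in the 33 genes with a window but no such run. Both lie close to 0.

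The 59 genes did not cover the whole ribosome. Of 80 core proteins listed, 53 were among them. The other 6 genes were the paralogs Rpl3l, known from striated muscle, Rpl10l and Rpl39l, known from testis, Rps27l, known as a p53 target, Rpl32l and Rps4l. The core genes Fau and Rps3a1 were measured but fall outside the naming rule, with log2 differences of -0.015 (standard error 0.028) and -0.078 (standard error 0.20), and a further 25 were not analysed here. The symbols of all 59 genes were the same in RefSeq by Entrez ID.

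Nipbl itself followed the labels. Its log2 intensity was 9.86 ± 0.12 (SD, n = 12) in Nipbl+/- and 10.52 ± 0.12 (SD, n = 12) in wild type embryos, a ratio of 0.630, and all 12 mutants had less than the average wild type embryo (limma adjusted p = 2.43e-09). The hindlimb markers Prrx1, Tbx4 and Pitx1 averaged 12.66, 11.71 and 11.50 over the arrays. Of 19937 genes, 57 were called higher (0.286%) and 105 lower (0.527%) in Nipbl+/- buds by limma at an adjusted p under 0.05, or 0.813% in all. Wild type replicate 3 and Nipbl+/- replicate 2 stood apart from the other arrays on the first component of the residuals, which held 34.3% of the residual variance.

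Ribosomal protein genes were among the brightest on the array. A mean log2 intensity over 12 was reached by 41 of 59 (69.5%), against 462 of all 19937 genes (2.32%), and the highest was that of Rpl9, at 14.04. The core genes ran from 7.35 for Rplp2 to Rpl9, while the paralogs Rpl39l (4.49), Rpl3l (5.52) and Rpl10l (7.05) were dimmer than any of them. How far intensities near the top of the scale still follow the amount of RNA was not tested.

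None of the 59 genes was called higher and none lower by limma, a count of 0 of 59 beside 0.813% of all genes. At an unadjusted p under 0.05, 1 gene was higher (Rpl6) and 4 were lower (Rps4l, Rps9, Rpl24 and Rpl9), which is 5 of 59, while 9.26% of all genes passed that mark. Other fits gave 0 members in most cases. The trended and robust variance of limma and a t-test on linear values called Rpl6, and fits with a covariate for the first residual component or for the interquartile range of each array called Rps4l and Rps9. With each of the 24 arrays left out in turn, and without both wild type replicate 3 and Nipbl+/- replicate 2, limma called 0 members every time. In whole buds, fewer cells of a type and less RNA per cell cannot be told apart.

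**Figure D1:**
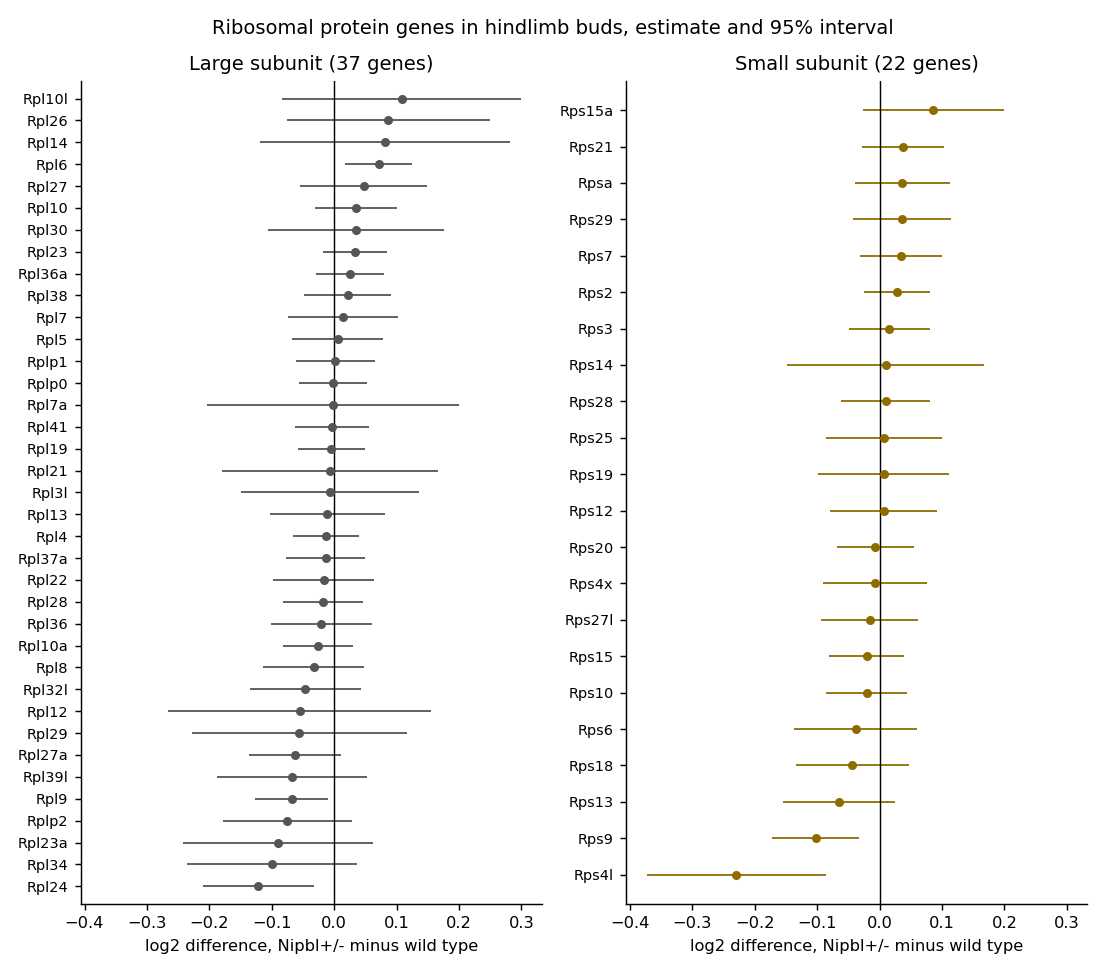
Log2 difference, Nipbl+/- minus wild type, of each ribosomal protein gene (points, brightest probe set) with its 95% interval from limma (lines), for the 37 large subunit genes (left) and the 22 small subunit genes (right). Most intervals hold 0, and those of Rps4l, Rps9, Rpl24 and Rpl9 lie below it and that of Rpl6 above it, none with an adjusted p under 0.05.

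The intervals set narrow limits on most of these genes. For 39 of 59 (66.1%) the whole 95% interval of the ratio lay within 1.1-fold in either direction, which held for 7144 of all genes (35.8%). Brightness went with this share: among genes with a mean over 12 it was 36 of 41 ribosomal protein genes (87.8%) and 80.3% of all genes. Among dimmer ribosomal protein genes it was 3 of 18 (16.7%), less than the 35.8% of all genes at any brightness. Differences lay above 0 in 25 genes and below 0 in 34, and this turned to 34 above and 25 below with array medians set to 0 or with a covariate for embryo sex. The median over the 59 genes, -0.0067, was close to that over all genes, -0.0049.

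No shift of one subunit against the other was seen. Large subunit genes had a median log2 difference of -0.0073, with 13 above and 24 below 0, and small subunit genes one of 0.0065, with 12 above and 10 below 0. Per embryo, the mean of the large subunit genes minus the mean of the small subunit genes was -0.99 ± 0.041 in Nipbl+/- and -0.99 ± 0.047 in wild type embryos (SD, n = 12 each), with ranges of -1.06 to -0.93 in Nipbl+/- and -1.07 to -0.90 in wild type. The negative sign is not read as amounts of protein or RNA, since levels of different probe sets cannot be set against each other. The large subunit genes include the dim paralogs Rpl39l, Rpl3l and Rpl10l, but the sign was the same in core genes alone. Their mean per Nipbl+/- embryo was 11.90 to 12.09 for large and 12.51 to 12.65 for small subunit genes. In wild type embryos it was 11.95 to 12.07 and 12.55 to 12.65. The genotypes differed in large minus small over all 59 genes by 0.0012, far less than the SD of either genotype.

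Rps4l, a small subunit paralog of Rps4x on chromosome 6, had the largest difference among the 59 genes. Its log2 intensity was 9.29, 9.70 and 9.87 (lowest, median and highest of 12) in Nipbl+/- and 9.56, 9.89 and 10.14 in wild type embryos. The groups overlapped, with 4 mutant embryos below the lowest wild type embryo and 6 wild type embryos above the highest mutant one. The ratio was 0.853, with a log2 difference of -0.23 (standard error 0.070). The limma adjusted p was 0.152, and 0.00529 to 0.347 over the alternatives. Of the 12 mutants, 11 had less than the average wild type embryo. Its other probe set gave a log2 difference of -0.21. Rps4x itself, on the X chromosome, had a log2 difference of -0.0076 (standard error 0.040).

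Rps9 lies near the channel through which messenger RNA enters the small subunit. In Nipbl+/- embryos its log2 intensity was 12.61, 12.79 and 12.88 (lowest, median and highest), and in wild type embryos 12.80, 12.88 and 12.94. In each direction 6 embryos lay outside the range of the other genotype. The ratio was 0.931 on the linear scale and the log2 difference -0.10 (standard error 0.034), with 11 of 12 mutants under the average of wild type embryos. Limma gave an adjusted p of 0.214, and of 0.0278 to 0.412 over the alternatives. Its second probe set gave -0.099, nearly the same difference. The start of Rps9 carries one of the tracts shown above.

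Rpl24, which helps to bridge the subunits, had log2 intensities of 12.19, 12.41 and 12.52 in Nipbl+/- and 12.36, 12.47 and 12.72 in wild type embryos. The ratio was 0.919 and the log2 difference -0.12 (standard error 0.043), at a limma adjusted p of 0.264, and 11 of 12 mutants were under the average of wild type embryos. The groups overlapped, with 5 mutants below every wild type embryo and 3 wild type embryos above every mutant. Over the alternatives the adjusted p of limma lay between 0.102 and 0.404.

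Rpl9, a large subunit protein near the site where elongation factors bind, had log2 intensities of 13.86, 14.02 and 14.07 in Nipbl+/- and 14.02, 14.08 and 14.15 in wild type embryos. The log2 difference was -0.068 (standard error 0.028) at a limma adjusted p of 0.404, and of 0.113 to 0.993 over the alternatives. All 12 mutants were under the average of wild type embryos, and 6 were below every wild type embryo. Its 7 other probe sets ran from -0.073 to 0.054, with 5 of them above 0, and the mean of its probe sets gave -0.0060. Rpl6 went the other way, with log2 intensities of 13.54, 13.63 and 13.68 in Nipbl+/- and 13.49, 13.54 and 13.64 in wild type embryos. Its log2 difference was 0.071 (standard error 0.026) at a limma adjusted p of 0.30, and of 0.0373 to 0.971 over the alternatives, and 11 of 12 mutants exceeded the average of wild type embryos. Its other 2 probe sets gave -0.0073 and -0.029, so the sign rested on the brightest one.

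**Figure D2:**
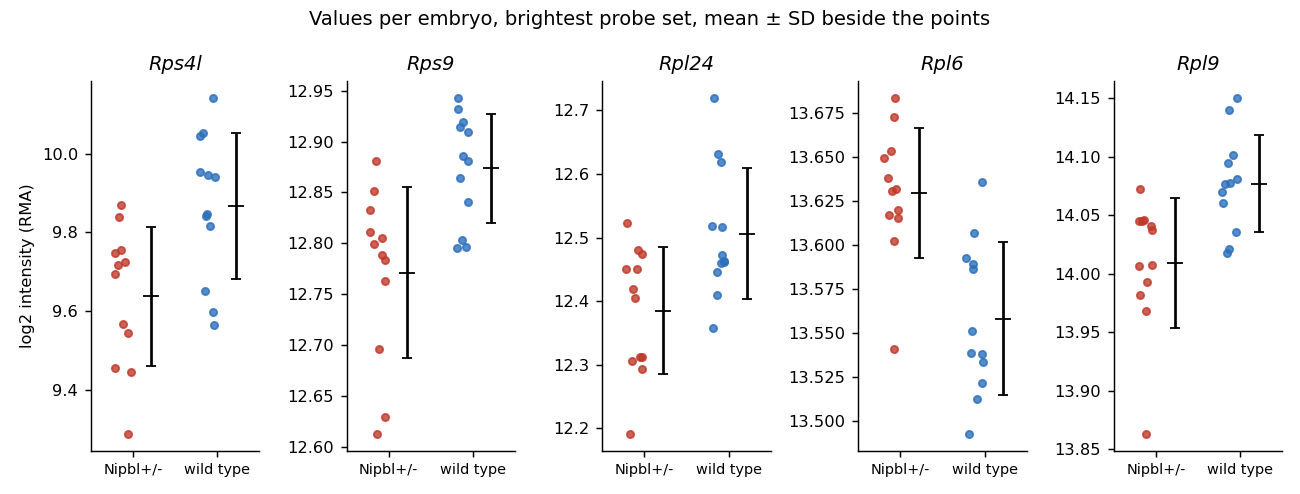
Log2 intensity (RMA) of the brightest probe set of Rps4l, Rps9, Rpl24, Rpl6 and Rpl9 in 12 Nipbl+/- (red, left) and 12 wild type (blue, right) embryos, where black marks give each genotype's mean ± SD, and a separate vertical axis for each gene. The genotypes overlap in every panel, and the span of the axes is small, from 13.49 to 13.68 for Rpl6.

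The genes known for skeletal or pigment mutants in mice gave 0 calls in 6 genes, beside 0.813% of all genes called. Rpl38 had log2 intensities of 12.94, 13.08 and 13.22 in Nipbl+/- and 13.00, 13.07 and 13.22 in wild type embryos, with a ratio of 1.015 (95% interval 0.967 to 1.07). Rpl27a had a ratio of 0.957, Rps7 of 1.024, Rps19 of 1.004 and Rps20 of 0.995. For Rpl38, Rps7, Rps19 and Rps20 the limma adjusted p was 0.856 or above, and for Rpl27a it was 0.646. Rpl24, described above, had the lowest of the 6, 0.264 by limma, at a log2 difference of -0.12. Of the 8 measured among 18 genes mutated in Diamond-Blackfan anaemia, 0 were called, again beside 0.813% of all genes. Of their differences 7 lay above 0, against 9269 of all 19937 genes. Their median was 0.022, less than their median standard error of 0.037. Rpl5, which with Rpl11 and the 5S RNA can bind the p53 regulator Mdm2, had a log2 difference of 0.0056 (standard error 0.036).

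The stalk, which recruits the elongation factors, was measured through 4 genes, and 0 were called, beside 0.813% of all genes. Rplp0 and Rplp1 differed by -0.0021 and 0.0018 on the log2 scale, each with a standard error of 0.031 or less. Rplp2, at a low intensity of 7.35, differed by -0.075 (standard error 0.051), and Rpl12 by -0.055 (standard error 0.10). At the exit of the peptide tunnel Rpl23a had a difference of -0.090 and Rpl26 one of 0.086, with standard errors of 0.074 and 0.079. Around the decoding site Rps2, Rps3 and Rps15 stayed within 0.028 of 0. The X-linked genes Rpl10, Rpl36a and Rps4x had ratios of 1.024, 1.018 and 0.995, or log2 differences of 0.035, 0.025 and -0.0076. Embryo sex was not balanced between the genotypes. With a covariate for it these log2 differences were 0.026, 0.039 and 0.0097. The paralogs Rpl10l (log2 difference 0.11, standard error 0.093), Rpl39l (-0.068), Rpl32l (-0.046), Rps27l (-0.016) and Rpl3l (-0.0073) were not called either.

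Many of these genes have several probe sets, and their processed copies in the genome are numerous and near identical, so a probe set may read more than 1 of them. Whether the brightest probe set reads the gene itself or a copy was not tested, for Rpl6, Rpl9 and Rpl24 as for the others. The 59 genes had 191 probe sets, 38 genes had more than 1, and Rpl23a had 10. Over all 21640 probe sets with a single symbol limma called 192 (0.887%), 69 of them higher (0.319%) and 123 lower (0.568%). Of the 132 ribosomal protein probe sets other than the brightest, 2 were called lower and 0 higher (1.52% in all, beside 0.887% of all probe sets in either direction). They belong to Rpl24 and Rpl27a. At an unadjusted p under 0.05, 5 of the 132 were higher and 8 lower, a share close to the 9.31% of all probe sets at that mark.

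The third-brightest Rpl24 probe set had log2 intensities of 8.97, 9.62 and 9.77 in Nipbl+/- and 9.64, 9.82 and 10.10 in wild type embryos. All 12 mutants were under the average of wild type embryos, and 8 of them below every wild type embryo. The log2 difference was -0.29 (standard error 0.073) at a limma adjusted p of 0.0479, against -0.12 and -0.042 for the brighter Rpl24 probe sets. The sixth-brightest Rpl27a probe set had 9.41, 9.88 and 10.03 in Nipbl+/- and 9.90, 10.09 and 10.61 in wild type embryos. Its log2 difference was -0.29 (standard error 0.070) at a limma adjusted p of 0.0430, again with 12 of 12 mutants under the average of wild type embryos, while the other 8 Rpl27a probe sets ran from -0.063 to 0.078.

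Both calls stood near the threshold. The log2 difference kept its sign with each array left out, from -0.31 to -0.24 for the Rpl24 probe set and from -0.31 to -0.25 for the Rpl27a probe set. The Rpl24 call was lost in 17 of those 24 fits, without Nipbl+/- replicate 1, 2, 4, 5, 7, 10, 11 or 12 and without wild type replicate 1, 2, 4, 6, 7, 8, 9, 11 or 12 (adjusted p from 0.0358 to 0.0901 by limma over the 24 fits). The Rpl27a call was lost in 16 of them, without Nipbl+/- replicate 1, 2, 3, 5, 6, 8, 10, 11 or 12 and without wild type replicate 2, 3, 5, 6, 8, 10 or 12 (0.0278 to 0.0812). With a covariate for embryo sex the adjusted p from limma was 0.135 for Rpl24 and 0.153 for Rpl27a, and neither call was kept by the t-test on linear values or once array medians were set to 0. The Rpl27a call was also lost with the erythroid markers as a covariate (0.0527) and without both wild type replicate 3 and Nipbl+/- replicate 2 (0.0752), adjusted p-values from limma. The sexes were not balanced, since Xist, which marks females, had a median log2 intensity of 5.6 in Nipbl+/- and 11.96 in wild type embryos.

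**Figure D3:**
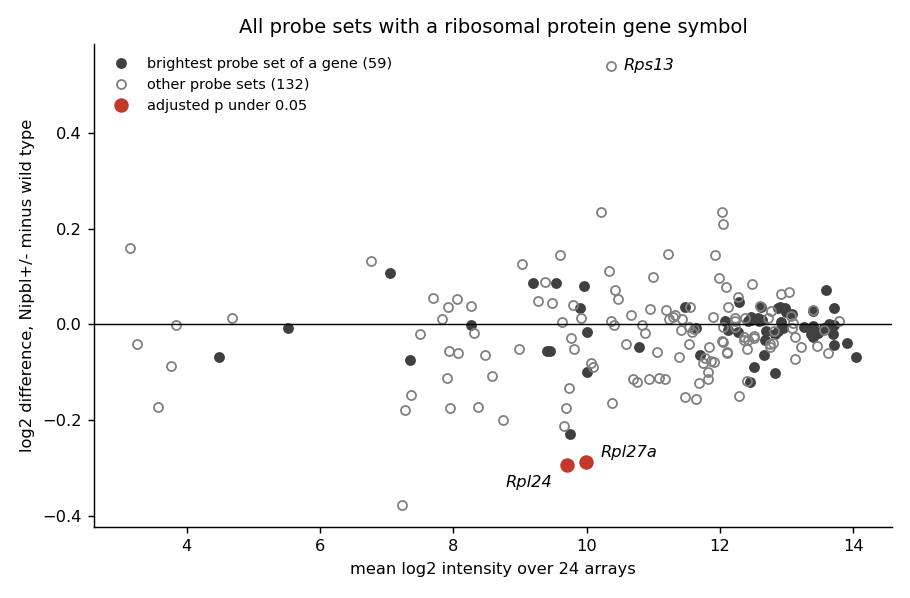
Log2 difference, Nipbl+/- minus wild type, against the mean log2 intensity over 24 arrays, for the brightest probe set of each ribosomal protein gene (filled), the 132 other probe sets (open) and those with an adjusted p under 0.05 (red). The red Rpl24 and Rpl27a probe sets lie at -0.29, and the Rps13 probe set at 0.54 had a standard error of 0.27.

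Probe sets of a gene often disagreed in sign. All probe sets lay on the same side of 0 in 9 of the 38 genes with several, and the median range within a gene was 0.153 on the log2 scale. The widest, 0.621, was that of Rps13. Its second probe set had log2 intensities of 9.54, 10.92 and 11.43 in Nipbl+/- and 8.11, 10.18 and 11.42 in wild type embryos, and its other 2 gave differences of -0.065 and -0.080.

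Among embryos of one genotype, ribosomal protein genes varied less than the whole set of genes, but not less than genes of like brightness. Their SD after removing the genotype means had a median of 0.0898 on the log2 scale, against 0.133 over all genes. In each of the 9 bins of 1 log2 unit that hold some of them and at least 5 genes, however, their median SD was the higher one. From 9 to 10 in mean log2 intensity it was 0.194 for 8 ribosomal protein genes and 0.119 for all genes. From 12 to 13 in mean log2 intensity the median SD was 0.0848 for 25 ribosomal protein genes and 0.0703 for all genes, and from 13 to 14 it was 0.0567 and 0.0561. The steadiest was Rpl23, with an SD of 0.034 and log2 intensities from 12.95 to 13.04 in Nipbl+/- and from 12.88 to 13.03 in wild type embryos. Next to it were Rpl4 and Rps2, at 0.036 and 0.037. The most variable was Rpl12, with an SD of 0.274 and a range of 8.90 to 9.91 in Nipbl+/- and 9.01 to 9.80 in wild type embryos.

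Of 58 genes in intensity bins of 1 log2 unit, 7 varied more than the 95th percentile of all genes in their bin: Rpl7a, Rpl12, Rpl14, Rpl21, Rpl23a, Rpl29 and Rps14. Another 3 (Rpl4, Rpl23 and Rpl36a) varied less than the 5th percentile. For Rpl7a the values were 7.39, 8.37 and 8.67 in Nipbl+/- and 7.82, 8.32 and 8.48 in wild type embryos, so that in both genotypes the lowest embryo lay farther from the median than the highest. Rps14 ran from 12.14 to 12.76 in Nipbl+/- and from 12.22 to 12.70 in wild type embryos, at medians of 12.47 in Nipbl+/- and 12.45 in wild type.

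**Figure D4:**
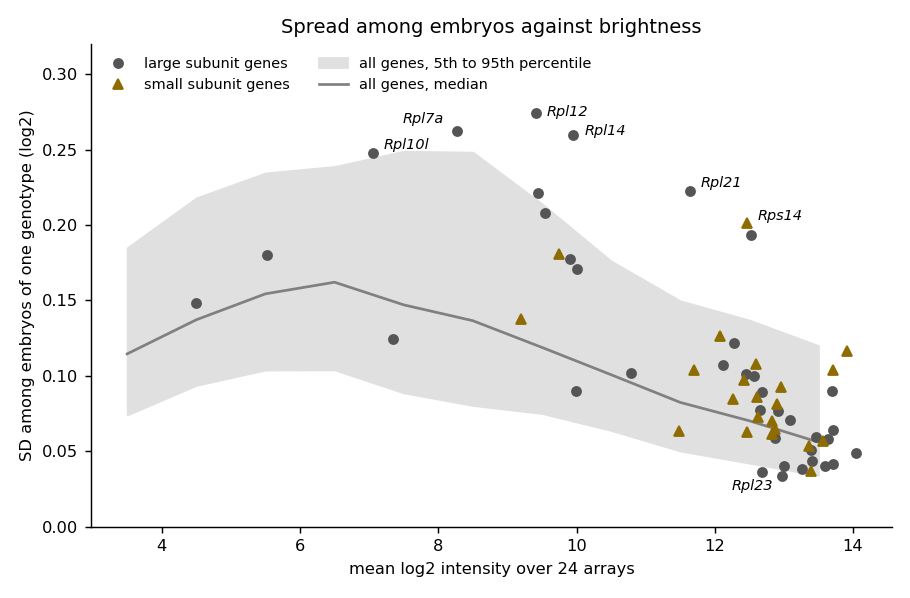
SD of log2 intensity among embryos of one genotype against mean log2 intensity, for large (circles) and small (triangles) subunit genes, over the median (line) and the 5th to 95th percentile (band) of all genes in bins of 1 log2 unit. The line falls from 0.162 between 6 and 7 to 0.0561 between 13 and 14, and Rpl12, Rpl14, Rpl21 and Rps14 lie above the band.

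The genes tended to move together from embryo to embryo. After removal of the genotype means, the median correlation over the 1711 pairs was 0.161 across 24 arrays, with 66.7% of pairs above 0, against 0.00927 and 50.8% over all gene pairs. It was 0.172 among large subunit genes, 0.183 among small subunit genes and 0.138 between the subunits. The first component of the scaled values held 25.2% of their variance and the second 20.1%. These pairs share arrays and a common range of brightness, whose part in the correlation was not tested.

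The mean over the 59 genes differed more among mutant than among wild type embryos as a range. Set against the wild type mean of each gene, it ran from -0.10 to 0.068 in Nipbl+/- (SD 0.053, n = 12) and from -0.048 to 0.039 in wild type embryos (SD 0.029, n = 12), and the difference in spread was not tested. Nipbl+/- replicate 10 was lowest, with 11 of 59 genes above the wild type mean, and Nipbl+/- replicate 12 highest, with 51 of 59. Nipbl+/- replicates 10 and 2 were low in both subunits. Wild type replicate 3 was high in large subunit genes (0.044) and low in small subunit genes (-0.052). Its array had the lowest interquartile range over the 21640 probe sets with a single symbol, 3.23. The range was 3.27 for Nipbl+/- replicate 2 and 3.32 for Nipbl+/- replicate 9. The median interquartile range was 3.59 in Nipbl+/- and 3.56 in wild type arrays.

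**Figure D5:**
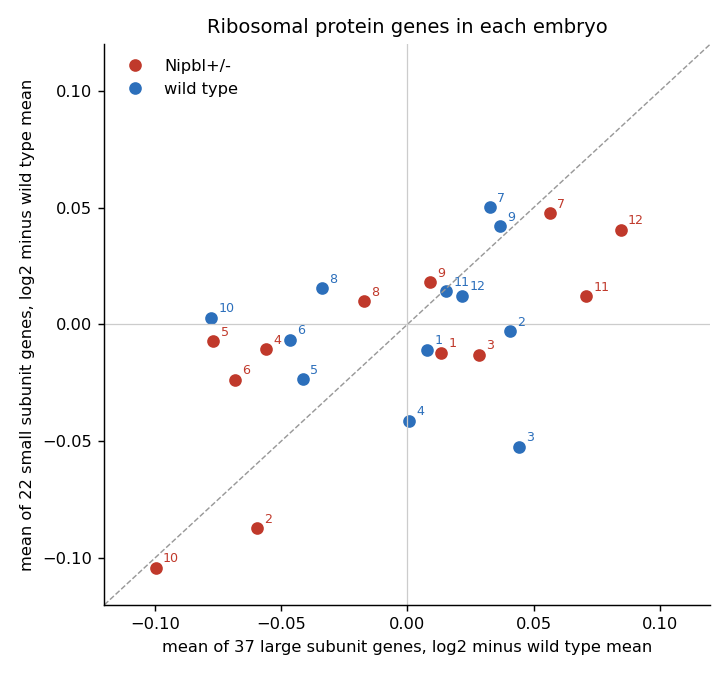
Mean log2 deviation from the wild type mean over 22 small subunit genes against that over 37 large subunit genes, for each Nipbl+/- (red) and wild type (blue) embryo with its replicate number, and the line of equal deviation dashed. The genotypes are mixed, and Nipbl+/- replicates 10 and 2 lie lowest in small subunit genes.

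No difference of the genotype effect between the sexes was called. Xist exceeded its wild type average in only 3 of 12 mutants, so the lack of calls does not show that such differences are absent. A limma interaction between genotype and the sex score, Xist minus the Y-linked genes, called 0 of 19937 genes and 0 of the 59, with 1196 genes (6.0%) and 6 of the 59 (10.2%) at an unadjusted p under 0.05. The smallest adjusted p of a ribosomal protein gene was 0.734, for Rpl7. With the sex score as a covariate limma called 0 of the 59 genes.

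No gene of the lists for making and using ribosomes was called either. Of 64 measured subunit assembly factors 0 were called by limma, an unadjusted p under 0.05 was reached by 4 that were higher and 2 that were lower, and the median log2 difference was 0.039, with 47 above and 17 below 0. The nucleolar GTPase Gnl3 had a log2 difference of 0.18 (standard error 0.053), with a limma adjusted p of 0.122 and 11 of 12 mutants over the average of wild type embryos. Rrs1, which acts in large subunit assembly, had one of 0.31 (standard error 0.099) and a limma adjusted p of 0.204. Limma also called 0 of 15 genes of RNA polymerase I and its factors (1 at an unadjusted p under 0.05), 0 of 7 of the small nucleolar RNA particles (0), 0 of 41 translation factors (3) and 0 of 17 regulators (1). Over all genes the shares were 0.813% called and 9.26% at an unadjusted p under 0.05.

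The regulators include Myc, which drives ribosome production, and it had a log2 difference of -0.17 (standard error 0.088), whereas its relative Mycn had one of 0.13 (standard error 0.069) and Mtor one of 0.076 (standard error 0.038). Eef1a1 and Eef2, elongation factors whose messages also carry the pyrimidine tract, differed by 0.0021 and 0.015. Of the 77 genes of the mitochondrial ribosome 0 were called and 6 passed an unadjusted p of 0.05, a smaller share than the 9.26% of all genes. Their median was -0.014. Mrps28 exceeded the average of wild type embryos in 12 of 12 mutants, by 0.21 on the log2 scale (limma adjusted p = 0.165).

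Markers of other cell types in the bud gave 1 call in 10 limb mesenchyme genes (Lhx9, higher, log2 difference 0.16, adjusted p = 0.00698 from limma) and 1 in 4 Schwann cell genes (Erbb3, higher, 0.25, adjusted p = 0.0499 from limma). Over all genes 0.813% were called and 9.26% had an unadjusted p under 0.05. That mark was passed by 3 mesenchyme genes that were higher and 1 that was lower (Hand2, -0.12). Differences lay above 0 in 6 mesenchyme genes and below 0 in 4. Only Erbb3 passed it among the Schwann cell genes, whose median was 0.035. None of 10 ectodermal, 7 erythroid, 10 endothelial, 10 macrophage and 5 muscle precursor genes was called by limma, with 1, 1, 1, 5 and 1 at an unadjusted p under 0.05. All 10 macrophage markers lay below 0, with a median of -0.11, and their mean level per embryo was 6.67 to 6.88 in Nipbl+/- and 6.76 to 6.98 in wild type. The mean erythroid level per embryo was 10.30 to 10.71 in Nipbl+/- and 10.33 to 10.79 in wild type.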

How the data were processed

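Total RNA from both hindlimb buds of 24 embryos was measured on 1 array each. The authors processed the arrays in GenePattern (Expression File Creator) with RMA, version not given in the sources used here. The deposited values are therefore log2 intensities, corrected for background, quantile-normalized and summarised by probe set. Array medians over 28159 probe sets were 7.24 to 7.39, interquartile ranges 3.34 to 3.84, and 0 arrays were identical. The number of arrays limits the precision. In the platform annotation 21640 probe sets had 1 symbol, 1321 several and 5198 none listed. The brightest probe set stood for a gene, giving 19937 genes.

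Arrays of all 12 Nipbl+/- and 12 wild type embryos were fitted with limma 3.58.1 (lmFit and eBayes, R 4.3.3) without covariates. P-values were adjusted by Benjamini-Hochberg over every gene, and a call needed an adjusted p under 0.05. The procedure was tested on simulated data. Genes and lists were chosen with earlier results of these data known. Named genes were those called, per subunit the 5 smallest p-values and the 2 highest and 2 lowest differences, the stalk, 5S, X-linked, paralog and mouse mutant genes, and per related list the called genes or the 2 smallest p-values. Others (genes of extreme spread or intensity, of the tunnel exit and decoding site, Myc, Mycn, elongation factors, mesenchyme markers) were named after their values were seen.

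The sex score was Xist minus the mean of Eif2s3y, Kdm5d and Uty. Alternatives changed the probe set rule, an intensity filter (30th percentile), the variance model, the test (on linear values), array weights, the replicate block, sex, the leading residual component, array centring, erythroid markers and the threshold. The interquartile range covariate and fits without each array were chosen after seeing the data. Sequences came from the RefSeq GRCm38.p6 promoter table. Plots used matplotlib 3.10.9 (Python 3.11.15).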

Additional observations from a re-analysis of the deposited data

How the results depend on the processing

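The counts of 0 higher and 0 lower ribosomal protein genes changed in 5 cases. One gene was called higher with the trended and robust variance of limma and with the t-test on linear values (count 1 each, Rpl6, adjusted p = 0.0478 and 0.0373). The count of lower genes was 2 with the residuals' leading principal component, with a covariate for the array interquartile range, and at an adjusted p under 0.25 (Rps4l and Rps9 each time, with adjusted p from limma of 0.00594 and 0.0364 with the component and 0.00529 and 0.0278 with the interquartile range). Over all genes, limma called 162, against 281 with array weights, 515 with the component and 483 with the interquartile range, and 125 with the covariate for embryo sex, where 30 were higher against 57 without it. With the mean of the probe sets in place of the brightest, Rpl10 (-0.024), Rpl5 (-0.070), Rps13 (0.13) and Rps4x (0.075) had the opposite sign, and none of these was called. A further 30 changes of sign were in 8 genes whose reported difference lay within 1 standard error of 0. Among them Rpl36a went from 0.025 to -0.045 with the mean of its probe sets.

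The median log2 difference ran from -0.023 to 0.0058 for large and from -0.0077 to 0.018 for small subunit genes over 16 alternatives, and the mean of large minus small from -0.014 to 0.0099 over 17. With each array left out in turn, 0 members were called higher and 0 lower in each of the 24 fits, and the smallest adjusted p of a member lay between 0.0691 and 0.247. Same-numbered embryos did not stand out as pairs: 5 of 12 same-numbered pairs had a correlation over 0.1, and 1 mutant embryo correlated best with its own number. These correlations cannot show whether the numbers follow litters, which no source used here gives. With the replicate number as a block, 0 ribosomal protein genes were called higher, 0 lower and 169 genes in all, and the adjusted p was 0.106 for the Rpl24 and 0.127 for the Rpl27a probe set. Dim genes such as Rpl10l and Rpl3l had wide 95% intervals of the log2 difference, from -0.083 to 0.30 and from -0.15 to 0.14.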
